A study of Mus musculus with 36 samples.

Results

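Of 25030 features in the authors' table of log10 levels, 84 were higher in induced pluripotent stem (iPS) cells than in embryonic stem (ES) cells. They were chosen by measured values: both iPS arrays lay above both ES arrays, the difference of the 2 means was at least 0.2 on the log10 scale (1.58-fold), and the iPS mean was at least 2.3. A feature is a 60-base probe that reads 1 stretch of a mouse transcript, and the 84 are called members here. The files give each probe an identifier and a sequence but pair it with no gene symbol or genome position, so members are named by their identifiers and no known function can be stated for them. For the same reason, the labelled cell types and the transgenes could not be checked against marker genes.

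The study profiled 36 cultures in 18 groups of 2 on 2-colour arrays, with the sample in Cy3 and a pooled mouse reference RNA in Cy5. ES cells were of the v6.5 line, a hybrid of C57Bl/6 and 129. The iPS cells were a single clone (clone #2) with the transgene KOS-ZERT2. Secondary mouse embryonic fibroblasts (MEFs), also a single clone (clone #1) with that transgene and on the same hybrid background, were sampled on days 1, 3 and 6 with or without doxycycline (Dox, 1.5 µg/ml) and tamoxifen (Tmx, 200 nM). ES, iPS and secondary MEF cultures were kept in ES medium with the cytokine LIF. Primary MEFs, either wild or with the transgene Zscan4ERT2, came from F1 hybrids of V6.5, were kept in MEF medium, and were profiled with and without tamoxifen. For the wild MEFs labelled Tmx+, and for 1 culture labelled Dox-Tmx+ on day 1, the treatment text names no tamoxifen. Nothing in the labels shows whether a group's 2 arrays are independent cultures. The p-values below therefore measure only the spread within groups, which may be technical, and the number of arrays limits their precision.

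As background, iPS cells are body cells returned to a pluripotent state by forced expression of transcription factors, and ES cells are the usual standard against which they are set. Secondary MEFs are fibroblasts grown from embryos made with such engineered cells, so that the factors can be switched on again with doxycycline. Fusing a protein to ERT2, a modified oestrogen receptor domain, holds it inactive until tamoxifen is added. Transcripts found in iPS but not in ES cells are commonly compared with the fibroblasts of origin, since reprogramming has to silence fibroblast genes. The iPS clone and the secondary MEF clone carry different numbers, so these fibroblasts are not recorded as the parents of these iPS cells.

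The sequences of 7 probes are given first, as read from the scanner files, because they stand for the patterns that follow. No position is given in the files for any of them. The first 2 belong to members with the same time course. Capitals mark the stretch over which they aligned, with 30 of 35 bases identical (85.7%).
Z00031819-1: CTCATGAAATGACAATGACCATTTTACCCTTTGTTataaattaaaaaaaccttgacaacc
Z00041156-1: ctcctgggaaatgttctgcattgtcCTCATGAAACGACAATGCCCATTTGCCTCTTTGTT
No other pair of members shared an alignment of that score. The next 3 are the members that were at background in wild MEFs alone.
Z00025402-1: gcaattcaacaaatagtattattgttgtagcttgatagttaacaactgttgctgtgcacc
Z00063386-1: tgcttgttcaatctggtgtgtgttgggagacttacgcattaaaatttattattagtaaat
Z00031814-1: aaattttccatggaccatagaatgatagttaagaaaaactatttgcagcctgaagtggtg
The last 2 are the member with the steepest fall under doxycycline and the one with the largest rise when tamoxifen was added to it.
Z00029853-1: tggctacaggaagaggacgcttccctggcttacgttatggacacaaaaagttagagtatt
Z00025969-1: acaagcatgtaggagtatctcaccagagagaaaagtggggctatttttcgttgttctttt
The median GC content was 43.3% for the members and 43.3% for all 25030 features. The hexamer AATAAA, read on the probe's strand only, was found in 10 of 84 members (11.9%) and in 7.9% of all features.

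The iPS and ES values chose the members, so they are given as a description with no test. The median difference was 0.262 (1.83-fold) and the range was 0.2 to 1.339. It was under 0.3 in 49 members, at least 0.5 in 17 and at least 1 in 3. Just inside the threshold were Z00000897-1 (0.2005) and Z00021401-1 (0.201). Just outside were Z00026041-1 (0.1995) and Z00074039-1 (0.1987). The iPS and ES arrays shared 1 slide. In ratios computed anew from the scanner files, 79 of the 84 kept every iPS array with a value above every ES array with one. Among the 79, Z00005106-1 had a value on 1 iPS array only, at -1.69 against -1.72 and -1.69 in ES cells. It thus showed almost no gap there. The 5 that overlapped were Z00064692-1, Z00059486-1, Z00076852-1, Z00016711-1 and Z00074539-1. For these 5, iPS arrays apart from ES arrays are seen in the authors' table only. On the scanner's own flag, 83 members were well above background on both iPS arrays and 80 on both ES arrays.

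The member with the widest gap in the authors' table was Z00064692-1, at 2.66 on both iPS arrays and at 1.29 and 1.34 on the ES arrays. It was not well above background on either ES array and was so on only 1 iPS array. In the scanner files its log2 ratios were -2.55 and -0.79 in iPS cells and -2.65 and -2.54 in ES cells, so 1 iPS array lay among the ES arrays and no fold is given. Its level was 3.43 and 3.38 in untreated wild MEFs, above both pluripotent lines. In secondary MEFs without drugs on day 1 it was at 2.66 on both arrays, about the iPS level. Z00031231-1 measured 2.64 and 2.62 in iPS cells and 1.58 and 1.5 in ES cells. It was between 2.72 and 3.11 on the 6 arrays of secondary MEFs without either drug. On both untreated wild MEF arrays it was at 2.37, below iPS cells. Z00057363-1 was at 3.31 and 3.28 in iPS cells, at 2.25 and 2.29 in ES cells, and at 5.36 and 5.34 in untreated wild MEFs. In the authors' table all 3 were thus nearer to fibroblasts in iPS than in ES cells, while their distances from the fibroblast level differed.

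Z00031819-1 was next, at 2.33 and 2.3 in iPS cells against 1.31 and 1.34 in ES cells, where it was not well above background (at least 2.27-fold). Z00030719-1 (2.89 on both iPS arrays, 1.89 and 1.94 in ES cells) and Z00063293-1 (2.97 on both, 2.14 and 2.08) were higher in every MEF group than in iPS cells, the first by least in day 6 cultures with both drugs (2.98 and 2.94). Z00070458-1 was at 3.58 and 3.57 in iPS cells, 2.78 and 2.8 in ES cells, and 5.1 on both untreated wild MEF arrays. A different pattern was seen for Z00059486-1. In the authors' table it was at 2.57 and 2.65 in iPS cells and 1.7 on both ES arrays, and no MEF array of any group exceeded 1.99. Its scanner log2 ratios were 0.76 and 0.97 in iPS cells and 0.78 on the 1 ES array with a usable spot, so the scanner files show no gap from that ES array. Z00071968-1 measured 2.35 and 2.36 in iPS cells and 1.66 and 1.59 in ES cells, lay between 2.02 and 2.1 in secondary MEFs without drugs, and was not well above background in any primary MEF group.

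Set against the secondary MEFs without either drug, 39 of the 84 members (46.4%) were higher on all 6 MEF arrays than on both iPS arrays. Among the other 12876 features with an iPS mean of at least 2.3, this share was 34.3%. Against the ES arrays, 50 members (59.5%) had all 6 MEF arrays higher, compared with 34% of the other features. Only 19 members (22.6%) had all 6 MEF arrays below both ES arrays, compared with 45.2%. The rule took members low in ES cells, which favours both counts against ES cells, and high in iPS cells, which works against the count above them; no test was made. Untreated wild MEFs gave 40 members above iPS cells (47.6%, other features 40.6%), 46 above ES cells (54.8%, others 40.5%) and 33 below ES cells (39.3%, others 54.2%). Among the 177 features lower in iPS than ES cells by the mirrored rule, the uninduced secondary MEFs were above both iPS arrays for 44.1%, above both ES arrays for 36.2% and below both ES arrays for 50.3%. Untreated wild MEFs were above both iPS arrays for 55.9% of them.

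**Figure D1:**
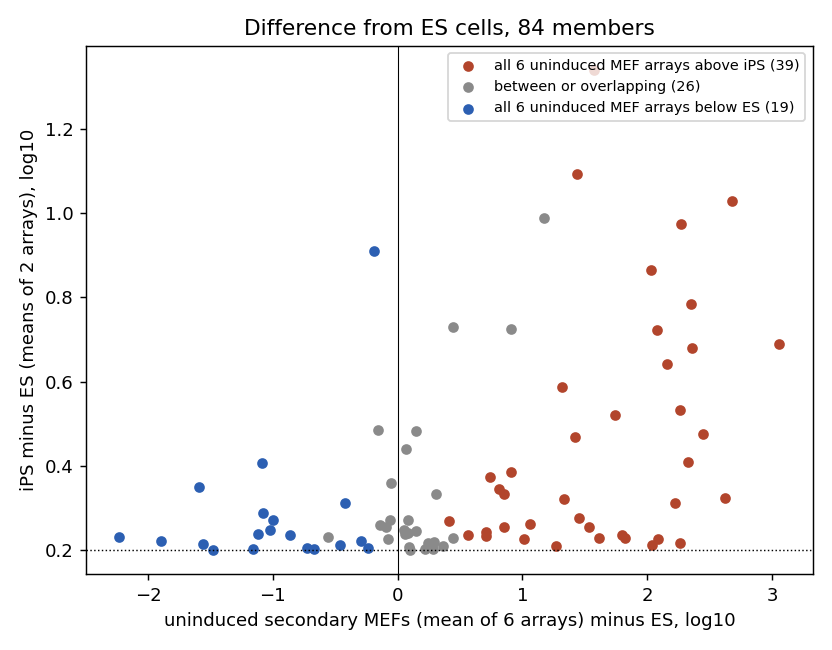
Each of the 84 members is a point; the horizontal axis is the mean of 6 uninduced secondary MEF arrays minus the ES mean and the vertical axis is the iPS mean minus the ES mean, both in log10 units, with the dotted line at the rule's 0.2. The 39 members above iPS cells lie to the right and span the whole height, while the 19 below ES cells lie to the left and mostly near the line.

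Where fibroblasts exceeded iPS cells, the size of the iPS excess relative to the fibroblast level varied widely between members. For the 39 members with uninduced secondary MEFs above iPS cells, the excess of iPS over ES cells on the linear scale was a median 3.51% of the excess of MEFs over ES cells (quartiles 1.16% and 14.3%). These shares rest on the authors' table. Among the 39, iPS and ES arrays overlapped in the scanner ratios for Z00064692-1, Z00076852-1, Z00016711-1 and Z00074539-1, and Z00005106-1 showed almost no gap there. The other 45 members have no such share. The lowest share was 0.246%, for Z00025893-1, and the highest 54.9%, for Z00031814-1, a ratio of 223 between them. Against untreated wild MEFs the median over 40 members was 5.6%, with a range of 0.279% to 58.3%. Of the features at least 100-fold higher in untreated wild MEFs than in ES cells, 12 of 154 were members (7.79%). The median iPS minus ES difference of these 154 features was 0.032, against 0 for all features. For those at least 100-fold higher in uninduced secondary MEFs the figures were 16 of 92 (17.4%) and 0.108. At a threshold of 10-fold, 28 of 1195 features high in wild MEFs were members (2.34%), and 31 of 972 features high in secondary MEFs (3.19%). The median iPS minus ES differences there were 0 and 0.001, and 78 and 66 of these features were lower in iPS than in ES cells by at least 0.2. Among all features, 84 of 25030 were members. The lists and the rule for members both use the ES arrays. A feature read low there by chance would tend to enter both and to show a higher iPS minus ES difference, and no test was made. Since these lists were not paired with gene names, the part of remaining fibroblasts in the iPS culture was not tested.

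The 4 members highest in uninduced secondary MEFs relative to iPS cells were Z00075103-1, Z00025893-1, Z00004514-1 and Z00016634-1, higher by 2.37, 2.29, 2.04 and 1.98 on the log10 scale. Z00075103-1 ran from 5.05 to 5.68 on those 6 arrays, against 3.02 and 2.98 in iPS cells and 2.32 and 2.31 in ES cells. At the other end stood Z00039693-1, Z00027110-1, Z00025969-1 and Z00022549-1, none of which was well above background on any uninduced secondary MEF array. The iPS level exceeded that in uninduced secondary MEFs at least 21.5-fold for Z00039693-1, at least 7.82-fold for Z00025969-1 and at least 5.12-fold for Z00022549-1. Z00027110-1 was at 3.12 and 3.13 in iPS cells and 2.9 on both ES arrays, and stayed between 0.85 and 1.21 on all 32 MEF arrays, with or without drugs. It was 1 of 4 members that did not pass the filter on dim features in the MEF groups. The other 3 were Z00076149-1, Z00047547-1 and Z00022549-1. The remaining 80 were tested among 32596 features.

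**Figure D2:**
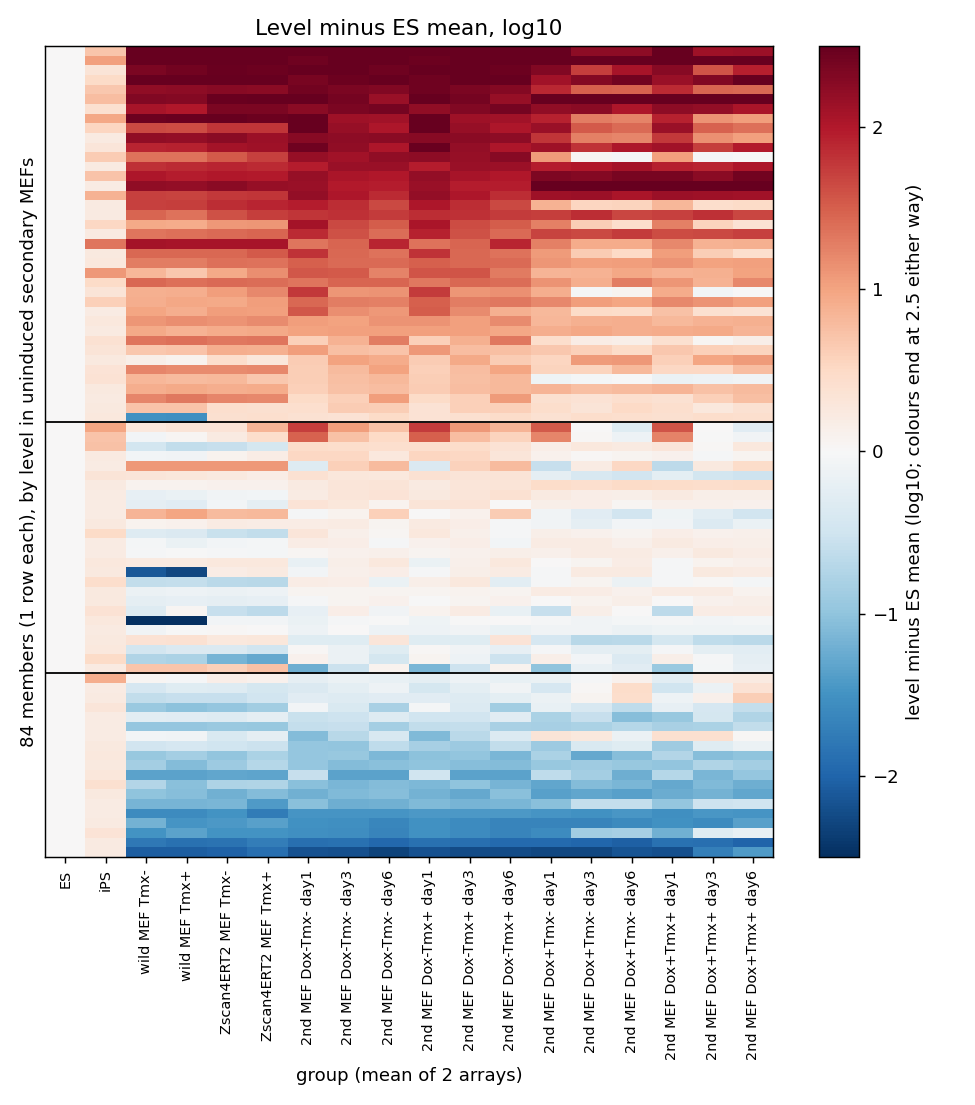
Rows are the 84 members and columns the 18 groups; colour is the mean of 2 arrays minus the ES mean in log10 units. Black lines part the 39 members with uninduced secondary MEFs above iPS cells, the 26 between or overlapping, and the 19 below ES cells; 3 rows are dark blue in the wild MEF columns alone.

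A group of 3 members stood out by their absence from wild MEFs, a pattern singled out after the values were seen. In the authors' table, 3 of 25030 features had all 4 wild MEF arrays at least 1 log10 unit below each of the other 32 arrays, and all 3 were members. Z00025402-1 lay between 1.05 and 1.23 on the wild MEF arrays and between 3.71 and 4.21 on all others, with iPS cells at 4.19 and 4.21 and ES cells at 3.94 and 3.92. Z00063386-1 lay between 1.07 and 1.24 in wild MEFs and between 3.27 and 3.6 elsewhere. Z00031814-1 lay between 1.44 and 1.54 in wild MEFs and between 3 and 3.49 elsewhere. The scanner called none of the 3 well above background on any wild MEF array and all of them on the 32 others.

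Their iPS minus ES differences were alike, at 1.87-fold, 1.74-fold and 1.86-fold. Their levels were not constant among the other groups. Z00063386-1, for example, was 1.74-fold higher on day 6 than on day 1 without drugs (limma, adjusted p = 1.11e-09). In the Zscan4ERT2 primary MEFs, which share the wild MEFs' labelled background, Z00025402-1 was at 3.87 and 3.85 without tamoxifen. Uninduced secondary MEFs exceeded untreated wild MEFs at least 34.8-fold for Z00025402-1 and at least 14.9-fold for Z00063386-1 (limma, adjusted p = 6.3e-24 and 5.69e-23). Z00031814-1 was also called higher (limma, adjusted p = 5.79e-19). In the same search over the scanner ratios of all 42006 probes, 2 were found, Z00025402-1 and Z00064853-1. The latter is outside the authors' table and was 1.84-fold higher in iPS than ES cells.

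The wider comparison of uninduced secondary with untreated wild MEFs is independent of the rule. However, clone, transgene, labelled background, medium, slide and scan day all differ between the 2 sides and cannot be told apart. Here 46 of 80 members were higher (57.5%) where 27.6% of all tested features were, and 27 were lower (33.8%) where 32.3% were (limma, adjusted p under 0.05). The members' median log2 difference was 0.3, against -0.01 over all features. Z00029853-1 was 7.27-fold higher, from 3.16 and 3.2 in wild MEFs to between 3.9 and 4.05 in secondary MEFs (limma, adjusted p = 3.36e-17). Some members were lower. Z00063785-1 was at 3.92 and 3.99 in wild MEFs and between 3.05 and 3.71 in secondary MEFs (log2 difference -2.15 ± 0.0763, SE; limma, adjusted p = 3.5e-16). Z00027126-1 was at 3.1 and 3.18 in wild MEFs and between 1.15 and 2.56 in secondary MEFs, and was called lower (limma, adjusted p = 2.51e-14). No size is given for it, since it was not well above background on day 1. Set against untreated Zscan4ERT2 MEFs, the 6 secondary arrays lay above with no overlap for 28 of 80 members (35%), against 19% of all tested features, and below for 17 (21.2%), against 22.3%.

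Doxycycline, a drug used to switch on transgenes, lowered more members than it raised on each day, but not all in the same direction. On day 1, 40 of 80 members were lower with doxycycline (50%; 22.6% of all tested features) and 14 higher (17.5%; 23.5%). On day 3, 41 were lower (51.2%; 27%) and 22 higher (27.5%; 31.1%). On day 6, 41 were lower (51.2%; 25.4%) and 24 higher (30%; 29%). The members' median log2 difference was -0.25, -0.2 and -0.23 on the 3 days, where the median of all features was -0.02, 0 and 0. The features chosen by the mirrored rule had medians of 0.23, 0.57 and 0.51. In all, 30 members were lower on all 3 days (37.5%; 11.5% of all tested features) and 11 higher on all 3 (13.8%; 14%). Another 7 were called in opposite directions on different days (8.75%; 7.01%), and 6 were called on none (7.5%; 24.5%). Averaged over days, 64 of 80 members were called (80%; 66.6% of all tested features). The effect on day 6 differed from that on day 1 for 51 members (63.7%; 41%). Each day's doxycycline cultures had a slide of their own, so slide and drug cannot be told apart within a day.

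The direction under doxycycline went with the level in the uninduced fibroblasts. Of the 39 members above iPS cells, 28 were lower on day 6 and 6 higher, with a median log2 difference of -0.75. For the 4415 other features placed above iPS cells by the same criterion, 46.5% were lower, 26% higher, and the median was -0.14. Of the 15 tested members below ES cells, 10 were higher and 1 lower, with a median of 0.46, and for the other features of that class 46.7% were higher, 15.8% lower, and the median was 0.15. The 26 members between had 8 higher and 12 lower, and for the other features of that class 27.8% were higher and 27.3% lower. The classes were drawn with the same uninduced arrays against which doxycycline was compared, so a member high there by chance would tend to appear lower with the drug.

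**Figure D3:**
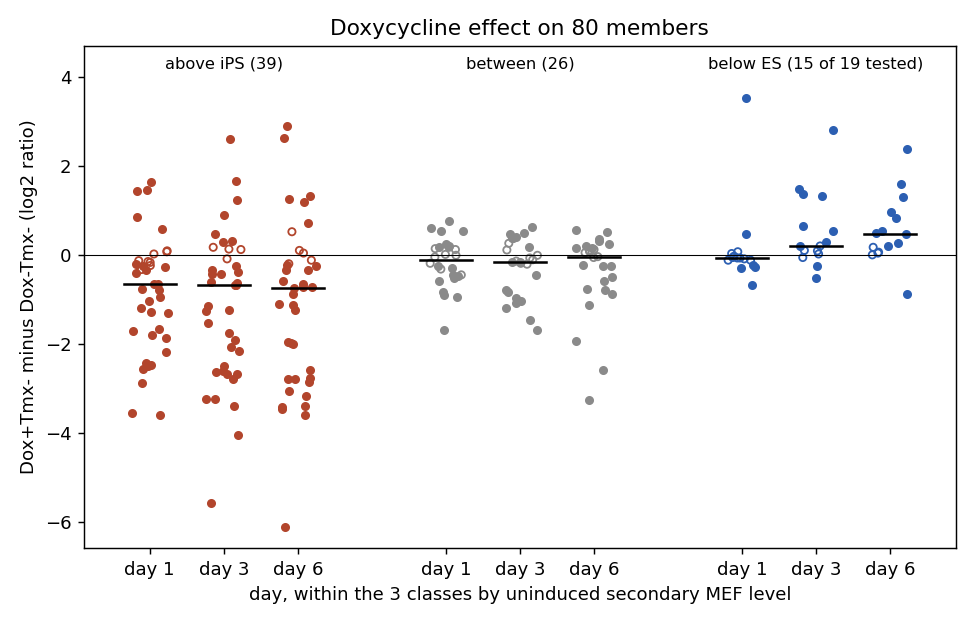
Each point is 1 of the 80 tested members; the vertical axis is the log2 difference between secondary MEFs with and without doxycycline (no tamoxifen), filled where the adjusted p was under 0.05, and bars are medians. Members with uninduced MEFs above iPS cells lie mostly below 0 on all 3 days, and those below ES cells lie mostly above 0 on day 6.

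The steepest fall was that of Z00029853-1. Without drugs it was at 4.05 and 3.95 on day 1, 3.93 and 3.9 on day 3, and 4.03 on both day 6 arrays. With doxycycline it was at 2.88 and 2.9, then 1.86 and 1.88, then 1.85 and 1.75, which is the ES level of 1.82 and 1.81. It was thus 11.8-fold lower on day 1 and 69.4-fold lower on day 6, and the log2 differences were -3.56, -5.58 and -6.12 (± 0.108 each, SE; limma, adjusted p = 1.69e-17, 2.13e-21 and 4.78e-22). In iPS cells it was at 2.47 and 2.45, above the day 3 and day 6 doxycycline cultures. Z00015883-1 went from 4.19 and 4.11 to 3.04 and 3.06 on day 1 (log2 difference -3.6 ± 0.116, SE; limma, adjusted p = 4.79e-17). Z00023022-1 went from 4.74 and 4.86 to 3.7 and 3.74 on day 6 (12.2-fold lower; limma, adjusted p = 3.16e-16). In the authors' table this was below its iPS level of 3.84 and 3.79. The log2 ratios overlapped, at -0.93 and -0.79 with doxycycline on day 6 and -0.7 and -0.89 in iPS cells.

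Rises were led by Z00034904-1, low without doxycycline on day 1 (1.89 and 1.82) and at 3.26 on both arrays with it, above the iPS level of 3.11 and 3.19. Its rise was 11.4-fold on day 1 and 6.99-fold on day 3 (limma, adjusted p = 5.84e-18 and 1.28e-16). By day 6 the gap had narrowed to a log2 difference of 0.83, from both sides. The uninduced cultures had reached 2.52 and 2.56. With doxycycline, the log2 ratios had fallen from 3.39 and 3.47 on day 1 to 1.98 and 2.07. Z00074875-1, already at 4.98 and 4.97 without the drug on day 6, was at 5.83 on both arrays with it (6.24-fold; limma, adjusted p = 1.33e-19). Z00070458-1 was 7.41-fold higher on day 6, from 4.98 and 4.91 to 5.9 and 5.89 (limma, adjusted p = 1.51e-19). Both of the last 2 thus moved further from their levels in iPS cells (3.22 on both arrays, and 3.58 and 3.57) under the drug.

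Time in culture without drugs changed most members. From day 1 to day 6, 31 of 80 rose (38.8%; 27.7% of all tested features) and 35 fell (43.8%; 27.4%). Slide and scan day also differed between the 2 arms. Z00074545-1 rose from 2.21 and 2.27 to 3.39 and 3.3 (8.46-fold; limma, adjusted p = 1.09e-17), with day 3 between at 3.16 and 3.15. Z00076852-1 rose from 2.64 and 2.59 to 3.25 and 3.33 (4.12-fold; limma, adjusted p = 6.45e-12).

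The 2 members with the aligned probe stretch, Z00031819-1 and Z00041156-1, had the largest falls over time. Z00031819-1 went from 3.05 on both day 1 arrays through 2.41 and 2.33 to 2.04 and 2.07 on day 6 (log2 difference -3.01 ± 0.116, SE; limma, adjusted p = 2.01e-15). Z00041156-1 went from 3.51 on both through 2.82 and 2.73 to 2.53 and 2.54 (log2 difference -3.06 ± 0.0938, SE; limma, adjusted p = 5.09e-17). With doxycycline both were lower on every day. On day 3 Z00041156-1 measured 2.1 and 2.04, close to its ES level of 2.07 and 2.01, and Z00031819-1 measured 1.4 and 1.29. With 30 of 35 bases shared, binding of each probe to the other's transcript was not tested, and the 2 are not taken as independent readings. Their iPS levels, 2.33 and 2.3, and 2.78 and 2.74, lay near those of uninduced day 3 cultures.

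**Figure D4:**
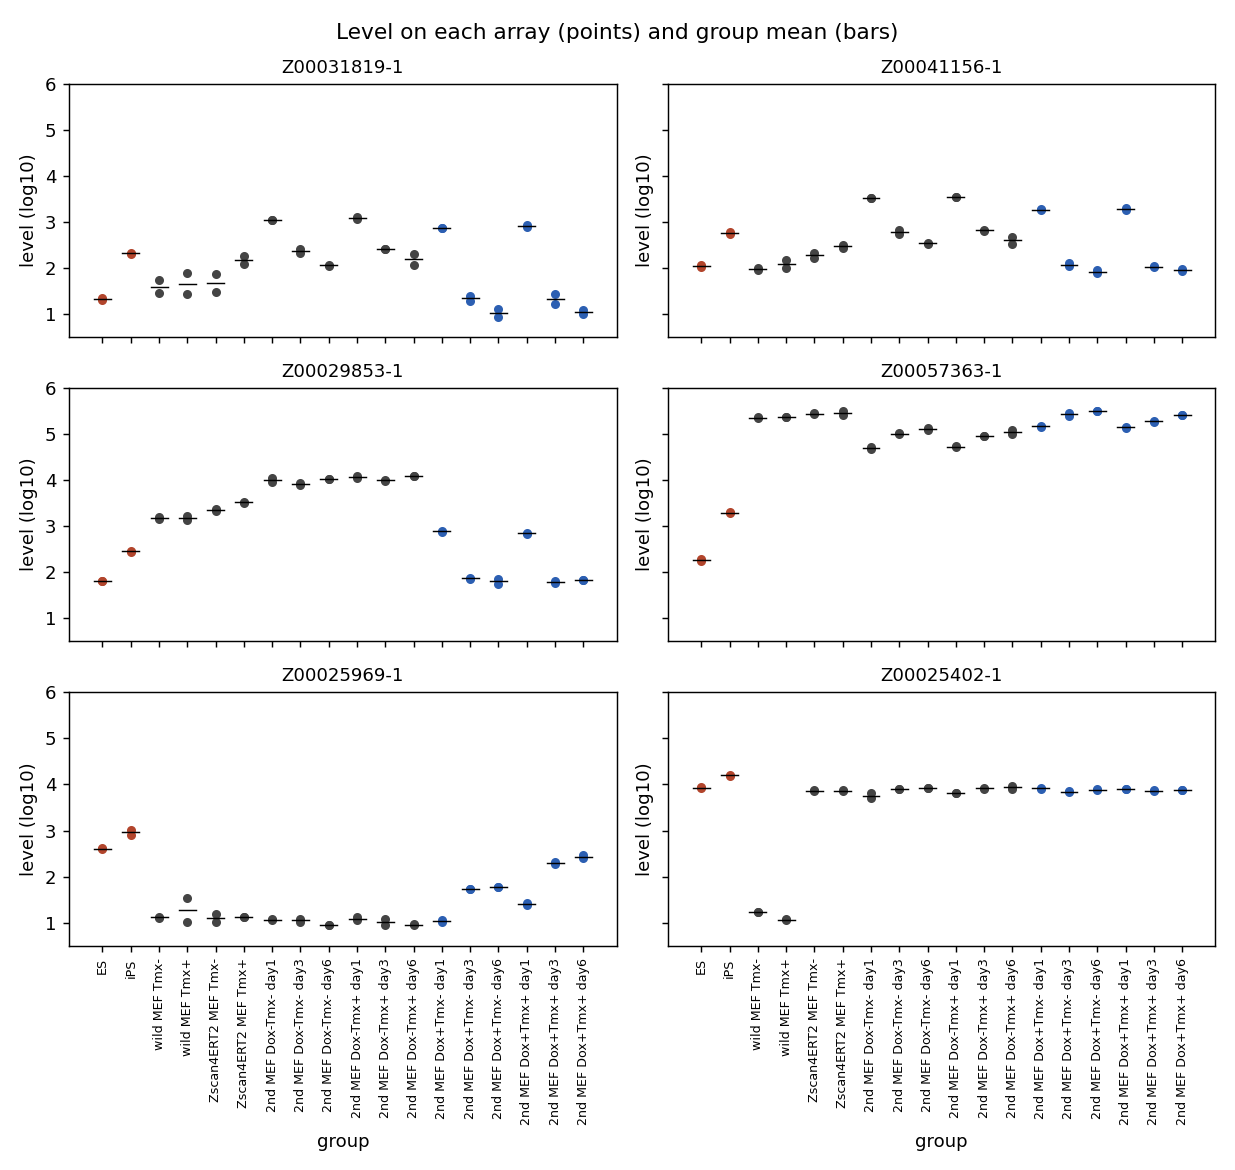
Levels (log10) of 6 members on every array, by group; points are arrays, short bars are means of 2, with ES and iPS cells in red, doxycycline cultures in blue and other MEFs in dark grey. Z00031819-1 and Z00041156-1 share a time course, Z00029853-1 drops under doxycycline, Z00057363-1 is above 4.6 in all MEFs, Z00025969-1 rises with both drugs, and Z00025402-1 is low in wild MEFs alone.

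Tamoxifen, which acts on the ERT2 fusion, had smaller effects, and the 2 arms of each secondary MEF comparison shared a slide. Added to doxycycline, it changed 0 of 80 members on day 1, where 0.328% of all tested features were called (limma; 5 members had an unadjusted p under 0.05). On day 3, 5 members were higher (6.25%; 4.87%) and 9 lower (11.2%; 1.94%). On day 6, 10 were higher (12.5%; 6.44%) and 7 lower (8.75%; 2.22%). The tamoxifen effect on day 6 differed between cultures with and without doxycycline for 7 members (8.75%; 3.69%). The counts were smaller in other fits, for which the share of all tested features is not given. The day 3 total of 14 became 8 without replicate 1 of either group, 9 without replicate 2 of the group with both drugs, and 5 with plain normexp correction. The day 6 total of 17 became 10 and 11 without replicates 1 and 2 of the group with doxycycline alone, 11 without replicate 1 of the group with both drugs, and 5 with plain normexp.

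By class, 7 of the 10 members raised on day 6 were below ES cells in uninduced fibroblasts, and all 7 that fell were above iPS cells. Thus 7 of the 15 tested members below ES cells rose, and 7 of the 39 above iPS cells fell. Of the other features in these classes, 13.6% of those below ES cells rose and 5.16% of those above iPS cells fell. Z00025969-1 showed the largest rise. Doxycycline alone gave 1.74 and 1.73 on day 3 and 1.78 and 1.77 on day 6, and both drugs gave 2.27 and 2.32, then 2.46 and 2.4. The rise was 1.82-fold on day 3 and 2.34-fold on day 6 (limma, adjusted p = 2.09e-05 and 1.18e-07). It kept its direction but was not called with the scanner software's own ratios (limma, adjusted p = 0.157 and 0.0739). Its levels remained below those of ES cells (2.6 and 2.62) and iPS cells (3.01 and 2.91). Z00039693-1, the member lowest in uninduced fibroblasts relative to iPS cells, was at 1.08 and 1 with doxycycline alone on day 6 and at 1.76 and 1.8 with both drugs (limma, adjusted p = 0.000239); no size is given, since it was not well above background with doxycycline alone.

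Z00076985-1 also rose, from 2.95 and 2.96 to 3.31 and 3.29 on day 6 (2.15-fold; limma, adjusted p = 2.6e-10), which brought it nearer to the uninduced level of 3.56 and 3.6. Z00004514-1 fell from 3.33 and 3.31 to 3.14 and 3.07 (log2 difference -0.65 ± 0.0762, SE; limma, adjusted p = 3.6e-06). Z00030719-1 fell on day 3 and day 6 (log2 difference -0.44 and -0.59; limma, adjusted p = 0.00328 and 9.79e-05), although the day 3 value was not called without replicate 1 of the group with doxycycline alone (limma, adjusted p = 0.146). Z00025893-1 fell on day 3 from 4.3 and 4.28 to 4.15 and 4.14 (log2 difference -0.47; limma, adjusted p = 0.000176).

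Without doxycycline, tamoxifen averaged over the 3 days changed 0 of 80 members, and 0% of all tested features were called (limma; 16 members had an unadjusted p under 0.05). The members' log2 differences lay between -0.17 and 0.26. Leaving out replicate 1 of the day 6 tamoxifen group turned this into 18 members called (22.5%), 13 higher and 5 lower, so the count of 0 rests on that array. In the same fit 4655 of all tested features were called (14.3%).

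In Zscan4ERT2 primary MEFs, where slide and scan day again differed between the 2 arms, tamoxifen raised 6 of 80 members (7.5%; 1.36%) and lowered 3 (3.75%; 1.17%). That total of 9 was 4 without replicate 1 and 5 without replicate 2 of the untreated group, 4 with plain normexp, 15 with no background subtraction and 17 in the authors' table. Shares of all tested features in these other fits are not given. Z00029853-1, which doxycycline lowered most in secondary MEFs, was at 3.38 and 3.32 without and 3.51 and 3.52 with tamoxifen (1.48-fold; limma, adjusted p = 0.00455), and the call was lost without replicate 2 of the untreated group (limma, adjusted p = 0.121). Z00003648-1 went from 1.83 and 1.87 to 2.03 on both arrays (1.47-fold; limma, adjusted p = 0.00685). In the log2 ratios that were tested, its 2 treated arrays lay apart, at -2.11 and -2.63, against -3.01 and -2.85 untreated. Z00073987-1 went from 4.8 on both arrays to 4.67 and 4.64 (log2 difference -0.49; limma, adjusted p = 0.000105). Z00043648-1 was called lower (log2 difference -0.48; limma, adjusted p = 0.0272), but its levels of 4.22 and 4.21 and of 4.17 on both arrays were close, and it was not called without either untreated replicate (limma, adjusted p = 0.143 in both fits).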

How the data were processed

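RNA of 36 cultures was hybridised with a pooled reference to Agilent 2-colour arrays, and per the file headers the authors extracted the spot intensity values and log10 ratios with Agilent Feature Extraction 9.5.1.1. The authors' deposited table gives log10 values for 25030 of 42006 probes; its normalization is not given in the sources used here. Its rows were paired with spots by feature number, and each column correlated at 0.977 to 0.994 with the logarithm of that array's background-subtracted Cy3 intensity. Column medians were 2.37 to 2.46. Levels in the text come from this table.

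For the tests, log2 ratios of sample over reference were computed from the deposited intensity columns with limma 3.58.1 in R 4.3.3: normexp background correction (offset 50), with local backgrounds flagged as outliers (4.72% of spots) set to the array's median, and loess within arrays. There was no dye swap, so dye bias is shared by all arrays. Spots flagged as non-uniform were left out and spots of 1 probe averaged. Probes had to be well above background on both arrays of at least 1 of the 16 MEF groups, which 32596 did. The fit had 1 mean per group over the 32 MEF arrays, without the iPS and ES arrays that chose the members, and calls were made at a Benjamini-Hochberg adjusted p under 0.05 over all 32596. Per array, 54.9% to 77.1% of probes cleared the scanner's background test. Lower bounds of folds use the sample channel after Aquantile scaling and are open to dye bias. The dim side is the measured signal, raised to the array's lowest well-above-background signal where it lay under that floor. The floor changed the dim means little or not at all. For Z00025402-1 in wild MEFs the log2 mean was 6.89 before and after it.

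On data simulated for the day 6 doxycycline comparison, the fit recovered 90 of 100 changes of 0.5 on the log2 scale. It recovered 100 of 100 changes of 1, with 8 false calls among 32432 features. In the measured data, the arms of that comparison lay on different slides, and the correlation within slides was estimated at 0.688. The simulation covers only the spread within groups, so it cannot show how many false calls differences between slides would cause. Replicate numbers were not used to pair the samples in the main fit. Replicate differences correlated between groups at a median of 0.0127, but single pairs of groups ranged from -0.633 to 0.534.

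Named members were the 10 with the widest iPS minus ES difference, up to 2 rises and 2 falls per tested comparison with groups that do not overlap, the 4 highest and 4 lowest in uninduced secondary MEFs relative to iPS cells, and 2 on each side of the threshold. Others were chosen after their values were seen: Z00076149-1, Z00047547-1, Z00031814-1, Z00064853-1, Z00005106-1, Z00016711-1, Z00074539-1, Z00027416-1, Z00072589-1 and Z00054742-1. The members and lists were chosen with earlier results of these data known. Alternatives are given in the closing section.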

Additional observations from a re-analysis of the deposited data

Results flagged for a closer look

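The doxycycline effect on day 6 differed from that on day 1 for 51 of the 80 tested members, by a test of the difference itself (limma, adjusted p under 0.05). It was higher on day 6 for 23 members and lower for 28, against 41% of all tested features called in either direction. For Z00034904-1 the effect was lower on day 6 by a log2 difference of -2.69 (limma, adjusted p = 6.36e-13), and for Z00070458-1 it was higher by 1.44 (limma, adjusted p = 8.14e-11). Both days have their own slides, and the part of slides in these differences was not tested.

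The tamoxifen effect on day 6 differed between cultures with and without doxycycline for 7 members, higher beside doxycycline for 4 and lower for 3. For Z00025969-1 the fitted difference was 1.33 on the log2 scale (limma, adjusted p = 1.8e-05), which is no measured size because it was not well above background in uninduced cultures, and for Z00030719-1 it was -0.55 (limma, adjusted p = 0.0149). All groups hold 2 arrays, so no single array was examined as an outlier.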

How the results depend on the processing

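Of 153 alternative counts of members called, or of members with MEFs above ES cells, 138 stayed within 1.5 times the value reported. The others were counts for tamoxifen. Beside doxycycline, plain normexp gave 5 members on day 3 and 5 on day 6, and leaving out 1 array gave 8 to 10 on day 3 and 10 to 13 on day 6. Tamoxifen without doxycycline gave 1 in the authors' table, and 0 to 18 with 1 array left out. In Zscan4ERT2 primary MEFs the count was 4 with plain normexp, 15 with no background subtraction and 17 in the authors' table, and 4 to 11 with 1 array left out. The cause of these shifts was not tested. The counts in this section stand without the share of all tested features called in the same fits. They show how the counts move, not whether members differ from other features there. Leaving out 1 array gave 46 to 53, 55 to 59 and 58 to 63 members for doxycycline on days 1, 3 and 6, 60 to 66 for culture time, 66 to 73 for secondary against wild MEFs, and 50 to 51 members with uninduced MEFs above ES cells.

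With the replicate block, the pairing by number gave 55, 63 and 65 members for doxycycline on days 1, 3 and 6, and 15 and 15 for tamoxifen beside it on days 3 and 6; for the other comparisons compared under the block, the counts were the same as without it. A slide block beside 1 mean per group could not be fitted, since each group lies on 1 slide. In a model chosen after seeing the data, with drug effects equal on all days, doxycycline changed 51 members with slide as a random block (36 lower, 15 higher) and 57 without it, against 64 when its effects were averaged over days. The share of all tested features called is not given for the fits of that model. Leaving out the 2 arrays on which plain normexp fails, also chosen afterwards, gave 60 members for doxycycline and 14 for tamoxifen beside it on day 6. Of 424 alternative values for the members named in a test, 410 kept the call, 14 lost it and 0 changed direction. Members not well above background have bounds only, and 2 arrays a group leave small differences undetected.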

Other observations

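The rule was also applied to the 16976 probes outside the authors' table, in scanner ratios, with a difference of at least 0.66 on the log2 scale and both iPS arrays well above background. Of 10203 probes with both iPS arrays well above background, 31 met it, and for 11 of these all 6 uninduced secondary MEF arrays were above both iPS arrays. The share of all 10203 probes with MEFs so placed is not given. In the authors' table it was 34.3% of the other features with an iPS mean of at least 2.3, by levels rather than ratios. Z00027416-1 had the largest difference, 4.29, with log2 ratios of -0.52 and -0.58 in iPS cells and -4.89 and -4.8 in ES cells. It was at 0.36 and 0.46 in untreated wild MEFs, at -3.63 and -3.89 in untreated Zscan4ERT2 MEFs, and between -0.97 and -0.85 in uninduced secondary MEFs. It was thus high in wild and low in Zscan4ERT2 primary MEFs. The next largest differences were 1.67 for Z00072589-1 and 1.63 for Z00054742-1.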
